A study of Arabidopsis thaliana with 12 samples.

Results

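The galactinol and raffinose synthase genes described here are GOLS1, GOLS2, GOLS3, GOLS4 and RS5, chosen by name and gene identifier with earlier results of these data known, and they are 5 of the 33610 genes in the deposited table. Galactinol synthases join galactose from UDP-galactose to myo-inositol, and raffinose synthases then move that galactose from galactinol to sucrose. Galactinol and the raffinose family of sugars built from it accumulate in plants under heat, drought, salt and cold, where they are known as compatible solutes and scavengers of hydroxyl radicals. In vegetative Arabidopsis tissue GOLS1 is known as a heat-inducible gene, GOLS2 as a drought-inducible gene and GOLS3 as a cold-inducible gene, and RS5 encodes the raffinose synthase of leaves under abiotic stress.

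RNA was sequenced from unopened flower buds (stages 1 to 12) of Arabidopsis thaliana Col-0 in 4 groups of 3 biological replicates, each replicate pooling buds of 8 plants. The groups were bzip17 mutant plants held at 38 °C for 6 h, bzip17 mutant plants kept at 22 °C, WT plants held at 38 °C for 6 h and WT plants kept at 22 °C, all grown in 16 h light and 8 h dark. The bzip17 mutant is 1 T-DNA insertion line of bZIP17, a membrane-anchored transcription factor of the endoplasmic reticulum stress response, so the genotype comparison rests on that line. The comparisons ask whether the heat response of flowers depends on bZIP17.

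The libraries held 38584506 to 71779333 estimated counts each, of which 1.43 to 64.8% fell on 15 ribosomal RNA (rRNA) loci. In 4 libraries this share was over 10%: bzip17 at 22 °C replicate 1 (20.7%), WT at 38 °C replicate 1 (19.0%) and WT at 22 °C replicates 2 (15.1%) and 3 (64.8%). bZIP17 itself stood at 3.50 to 10.3 CPM (counts-per-million of the library total scaled by the TMM method of edgeR) in the 6 bzip17 libraries and at 31.7 to 51.1 CPM in the 6 WT libraries, so every library fitted its genotype label. The 5 floral organ identity genes checked (AP1, AP3, PI, AG and SEP3) were detected in all 12 libraries, summing to 219 to 719 CPM, whereas 4 storage genes of maturing seed, a tissue rich in raffinose, summed to 0 to 0.724 CPM. The seed storage gene SESA3 was at 0 in all 12 libraries. Markers of tapetum, the nutritive layer of the anther, summed to 31.8 to 167 CPM and those of root to 17.6 to 30.6 CPM (4 genes each). Of the root sum, SCR made up 13.6 to 26.7 CPM and IRT1 1.61 to 10.7 CPM, whereas PYK10 and WOX5 stayed at 0 to 0.816 and 0 to 0.929 CPM.

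The coding sequences and promoters show how far the 4 galactinol synthase genes are alike. Their RefSeq coding sequences are 1035 (GOLS1), 1008 (GOLS2), 1005 (GOLS3) and 1005 bases long (GOLS4), each in 4 coding exons, and RS5 has 2352 coding bases in 5 exons. GOLS1 was identical to GOLS2, GOLS3 and GOLS4 over 72.7, 74.2 and 73.3% of the aligned coding bases, and GOLS2 and GOLS3 were the closest pair at 83.3%. The longest stretch without a difference between any 2 of the 4 was 26 bases.

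The 250 bases before the RefSeq gene start (TAIR10.1) are printed here for the 4 galactinol synthase genes because they differ in the heat shock element, the binding site of heat shock factors. Capitals mark the matches to the heat shock element cores GAANNTTC and TTCNNGAA, searched on both strands. The windows are chr2:19370479-19370728 (minus strand) for GOLS1, chr1:21207287-21207536 (plus strand) for GOLS2, chr1:3019389-3019638 (plus strand) for GOLS3 and chr1:22280594-22280843 (minus strand) for GOLS4.
GOLS1: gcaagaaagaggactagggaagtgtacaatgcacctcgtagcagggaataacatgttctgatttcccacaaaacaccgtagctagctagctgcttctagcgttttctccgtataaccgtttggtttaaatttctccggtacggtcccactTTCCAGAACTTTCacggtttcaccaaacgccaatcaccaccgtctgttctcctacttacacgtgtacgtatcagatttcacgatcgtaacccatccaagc
GOLS2: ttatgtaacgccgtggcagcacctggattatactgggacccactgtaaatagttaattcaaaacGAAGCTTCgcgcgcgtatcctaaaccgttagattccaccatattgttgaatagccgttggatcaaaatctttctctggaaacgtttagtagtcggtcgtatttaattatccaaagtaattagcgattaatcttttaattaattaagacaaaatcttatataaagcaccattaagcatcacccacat
GOLS3: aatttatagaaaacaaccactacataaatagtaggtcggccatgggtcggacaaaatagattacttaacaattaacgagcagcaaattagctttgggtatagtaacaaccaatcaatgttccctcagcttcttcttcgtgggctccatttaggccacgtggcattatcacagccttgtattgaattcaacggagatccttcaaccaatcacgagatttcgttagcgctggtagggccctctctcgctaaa
GOLS4: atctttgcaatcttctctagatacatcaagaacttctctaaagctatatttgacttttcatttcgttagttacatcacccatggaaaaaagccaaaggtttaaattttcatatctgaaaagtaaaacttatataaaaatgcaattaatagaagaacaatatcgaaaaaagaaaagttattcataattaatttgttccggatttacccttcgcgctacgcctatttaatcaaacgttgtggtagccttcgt

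GOLS1 had both cores, which overlap in a run of 3 alternating units whose first base lies 100 bases before the gene start. Such a run, in either orientation, was found in 0.386% of 27437 promoters of the same length, and at least 1 of these cores in 16.2%. The run was not among the motifs planned for the search, so its share is a description only. GOLS2 had 1 core, 186 bases before the start, and no core matched in GOLS3, GOLS4 or RS5. For GOLS1, GOLS3, GOLS4 and RS5 the RefSeq start lies upstream of the start in the deposited coordinates. The bases between those starts were not searched. The G-box CACGTG, a bZIP-binding sequence present in 6.49% of promoters, matched in GOLS1 (42 bases before the start) and GOLS3 (96 bases), each time also as the shorter abscisic acid response core ACGTG (22.9% of promoters). The drought and cold response core CCGAC, present in 12% of promoters, matched in GOLS2, GOLS3 and RS5. The endoplasmic reticulum stress element ERSE-II, searched by its consensus letters and found in 0.062% of promoters, did not match in the 5 windows. These matches describe letters in a window and not bound sites.

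GOLS1 (AT2G47180, chromosome 2, 19368798 to 19370441 on the minus strand in TAIR10) was strongly up-regulated by heat in both genotypes. In bzip17 flowers it stood at 132, 307 and 163 CPM at 38 °C (replicates 1, 2 and 3), against 20.3, 14.6 and 8.36 CPM at 22 °C. In WT flowers it stood at 113, 299 and 92.8 CPM at 38 °C, against 14.7, 15.6 and 12.3 CPM at 22 °C. All 3 heated libraries lay above all 3 unheated ones in each genotype, and replicate 2 was the highest heated library in both.

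The change was 13.9-fold in bzip17 flowers (3.80 ± 0.50 on the log2 scale, SE, n = 3 in each group), with a Benjamini-Hochberg adjusted p of 0.000311 by edgeR's quasi-likelihood test. In WT flowers it was 11.8-fold (3.57 ± 0.50, adjusted p = 0.000569 by edgeR). Of the 20715 genes tested, 6.08% were called higher in heated bzip17 flowers and 6.4% in heated WT flowers, a call being an adjusted p under 0.05 and more than a 2-fold change. By size of rise, 359 tested genes stood above GOLS1 in bzip17 and 307 in WT. Without WT replicate 2 at 38 °C, the change in WT was smaller, at 2.86 on the log2 scale, and still called. In whole buds, more RNA in each cell and more cells making it cannot be told apart.

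The genotypes did not differ detectably in GOLS1. At 38 °C the means were 201 ± 93.6 CPM in bzip17 and 168 ± 113 CPM in WT (SD, n = 3 each), and at 22 °C they were 14.4 ± 5.99 CPM in bzip17 and 14.2 ± 1.69 CPM in WT (SD, n = 3 each). The ranges of both genotypes overlapped at each temperature. The log2 difference between bzip17 and WT was 0.25 ± 0.45 (SE) at 38 °C (adjusted p = 1, edgeR) and 0.02 ± 0.46 at 22 °C (adjusted p = 0.996, edgeR). Across all genes, 0.00483% were called higher and 0.00965% lower at 38 °C, and 0% higher and 0.00965% lower at 22 °C, so few genes of any kind separated the genotypes by edgeR. At an unadjusted p under 0.05 by edgeR there were 917 of 20715 genes at 38 °C and 2028 at 22 °C, where a share of 0.05 would pass with no true difference.

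The difference between the heat responses of the genotypes was tested as an interaction. For GOLS1 it was 0.23 ± 0.64 on the log2 scale (SE, adjusted p = 1.00 by edgeR), with the larger heat response in bzip17. No gene passed that test by edgeR (0%), and DESeq2 called 6. An unadjusted p under 0.05 by edgeR was found for 895 of 20715 genes, where a share of 0.05 would pass with no true difference. The sign of the GOLS1 difference depended on single libraries. It was -0.21 without bzip17 replicate 2 at 38 °C, -0.06 without WT replicate 3 at 38 °C and -0.04 without bzip17 replicate 3 at 22 °C, whereas without WT replicate 2 at 38 °C it was 0.94.

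**Figure D1:**
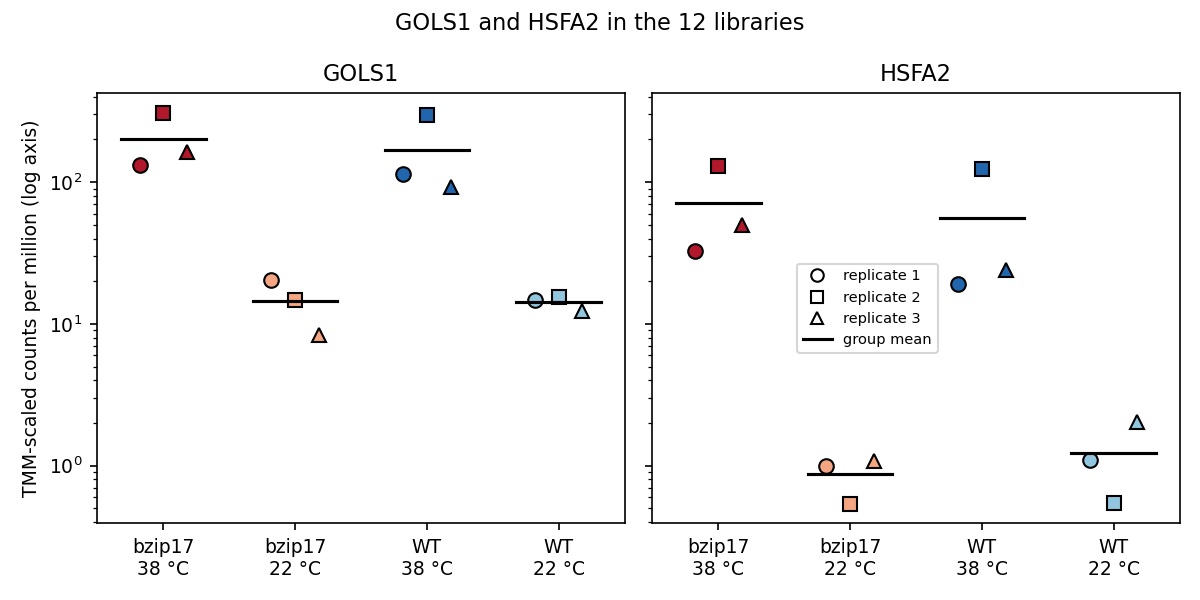
TMM-scaled CPM (log axis) of GOLS1 (left) and HSFA2 (right) in the 12 libraries, with 1 symbol per library, its shape giving the replicate number, and a bar at the group mean. The 3 heated libraries of each genotype lie above its unheated ones for both genes, and replicate 2 is highest among the heated libraries.

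GOLS1 overlaps the end of the neighbouring gene ARF1A1C by 43 bases on the TAIR10 coordinates, and no strand protocol is stated. ARF1A1C, which encodes a small GTPase of vesicle traffic, stood at 160 to 185 CPM in heated against 230 to 277 CPM in unheated bzip17 flowers, and at 146 to 174 CPM in heated against 183 to 277 CPM in unheated WT flowers. It was thus lower where GOLS1 was higher, with log2 changes of -0.54 in bzip17 and -0.59 in WT (adjusted p = 0.0341 and 0.0237, edgeR), under the 2-fold limit.

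GOLS1 made up nearly the whole galactinol synthase transcript pool of the 4 genes. Compared per length, as FPKM (fragments scaled by transcript length and by mapped reads), GOLS1 accounted for 94.1 to 100% of the summed GOLS1 to GOLS4 level in each of the 12 libraries. Its FPKM was 107, 249 and 132 in heated bzip17 flowers, against 12.6, 11.2 and 7.16 in unheated bzip17 flowers. In WT flowers it was 81.9, 241 and 76.5 at 38 °C, against 12.2, 10.7 and 3.54 at 22 °C. The lowest of these values came from WT replicate 3 at 22 °C, the library with 64.8% of its counts on rRNA, which are part of the total behind FPKM. Ranked by FPKM, 476 to 1784 genes lay above GOLS1 in a heated library and 7892 to 13483 in an unheated one.

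**Figure D2:**
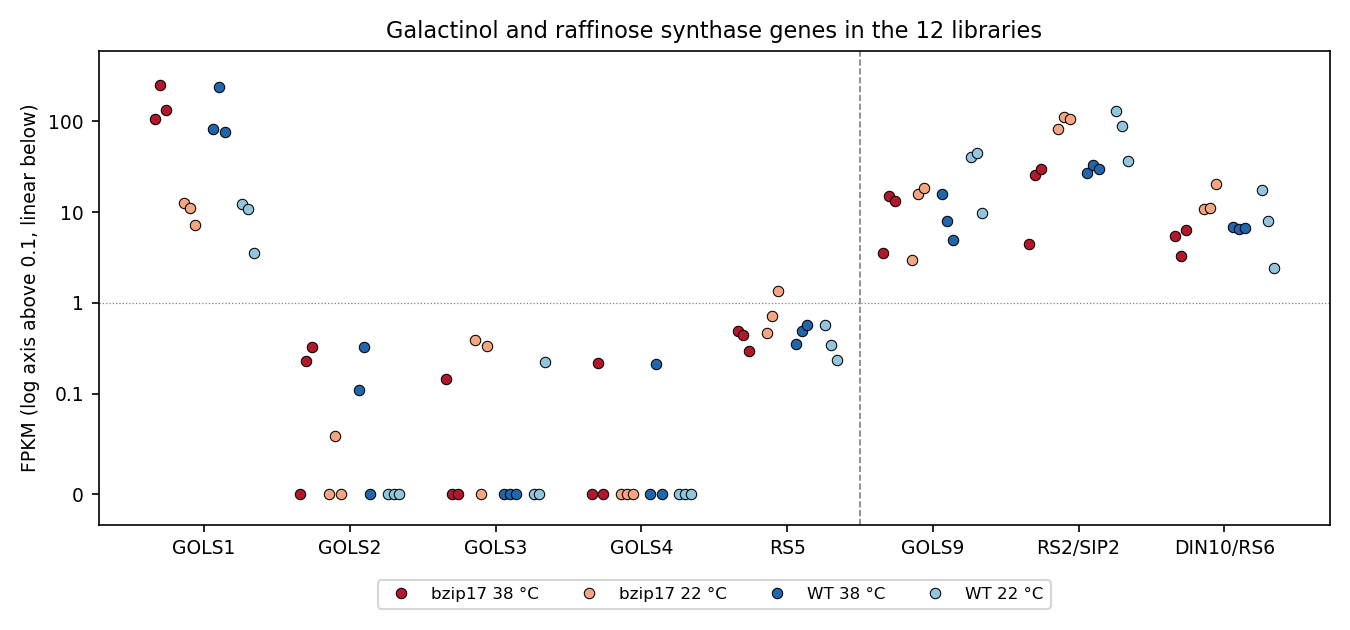
FPKM of GOLS1 to GOLS4, RS5 and 3 other family members (right of the dashed line) in each library, in the order bzip17 at 38 °C, bzip17 at 22 °C, WT at 38 °C and WT at 22 °C, on an axis that is logarithmic above 0.1 and linear below. The dotted line marks an FPKM of 1, which GOLS1 passes in all 12 libraries, RS5 in 1, and GOLS2, GOLS3 and GOLS4 in none.

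Of the 5 genes, GOLS1 alone reached the expression limit of 1 FPKM in at least 3 libraries. GOLS2 (AT1G56600, chromosome 1, 21207537 to 21209596) had 0, 19 and 22 counts in heated bzip17 flowers, against 0, 4 and 0 in unheated bzip17 flowers. In WT flowers it had 8, 24 and 0 counts at 38 °C, against 0 in each of the 3 libraries at 22 °C. The counts sat mainly in heated libraries, 41 in bzip17 and 32 in WT, but 1 of 3 heated libraries of each genotype had none.

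GOLS3 (AT1G09350, chromosome 1, 3019819 to 3021441) had 15, 0 and 0 counts in heated bzip17 flowers, against 23, 0 and 27 in unheated ones, and in WT flowers 0 in each heated library, against 0, 0 and 12 at 22 °C. Its counts thus summed to 15 in heated and 50 in unheated bzip17 flowers, and to 0 in heated and 12 in unheated WT flowers, but 1 of 3 unheated bzip17 libraries and 2 of 3 unheated WT libraries had none. GOLS4 (AT1G60470, chromosome 1, 22278975 to 22280586, overlapping its neighbour AT1G60460 by 33 bases) had 18 counts in bzip17 replicate 2 and 15 in WT replicate 2, both at 38 °C, and 0 in the other 10 libraries.

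The highest FPKM in any library was 0.322 for GOLS2, 0.385 for GOLS3 and 0.215 for GOLS4. A library with 0 counts allows a level of up to 0.0363 to 0.195 CPM (3 counts of its scaled total), which covers counting error only. When all 28129 genes with a count were fitted without the limit, the adjusted p for heat by edgeR was 0.408 in bzip17 and 0.161 in WT for GOLS2, 0.557 and 0.179 for GOLS3, and 0.296 and 0.324 for GOLS4, in the same order of genotypes. In that fit 9.32% of genes were called in either direction in bzip17 and 9.41% in WT. At this depth a heat response of these genes was not detectable, and no fold change is given at such counts.

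RS5 (AT5G40390, chromosome 5, 16161515 to 16165357) was low in every group and was not called in any comparison by edgeR. In bzip17 flowers it stood at 1.27, 1.13 and 0.759 CPM at 38 °C, against 1.59, 1.97 and 3.31 CPM at 22 °C. In WT flowers it stood at 1.03, 1.27 and 1.47 CPM at 38 °C, against 1.45, 1.04 and 1.76 CPM at 22 °C. The bzip17 groups did not overlap and the WT groups did, which with 3 libraries in each group does not show that the genotypes differ.

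Fitted without the expression limit, the log2 change of RS5 with heat was -1.11 ± 0.46 in bzip17 flowers (SE, n = 3 in each group, adjusted p = 0.117 by edgeR) and -0.16 ± 0.46 in WT flowers (adjusted p = 0.878 by edgeR). DESeq2 gave -1.10 with an adjusted p of 0.0421 in bzip17, so that call depended on the tool. By limma on log2(FPKM + 1) the change was -0.37 (adjusted p = 0.292), a scale that understates changes of low genes. The difference between these responses was -0.95 ± 0.65 (adjusted p = 1.00 by edgeR). Between genotypes, bzip17 minus WT was -0.25 at 38 °C (adjusted p = 1) and 0.71 at 22 °C (adjusted p = 0.692, both edgeR), where 0.0107% of genes were called at 38 °C and 0.00711% at 22 °C in the fit without the limit. By FPKM, RS5 lay between 0.236 and 1.36 and passed 1 only in bzip17 replicate 3 at 22 °C, the library with the most RS5 counts (229).

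The wider pathway was counted over 41 genes in 7 lists. Of the 6 other galactinol synthase family genes, GOLS9 (listed in RefSeq as GATL4, a galacturonosyltransferase-like gene) was the 1 that was tested. It stood at 4.47, 19.3 and 16.7 CPM in heated bzip17 flowers, against 4.93, 21.3 and 22.2 CPM in unheated ones, a log2 change of -0.27 (adjusted p = 0.795, edgeR). In WT flowers it had 22.2, 10.2 and 6.09 CPM at 38 °C, against 50.1, 66.1 and 34.5 CPM at 22 °C, and fell by 1.97 on the log2 scale (adjusted p = 0.0425, edgeR). That call was lost without any single WT library except replicate 1 at 38 °C, and without bzip17 replicate 3 at 38 °C (adjusted p 0.0516 to 0.130). The summed level of 4 late pollen markers (SPIK, CPK34, VGD1 and a LAT52-like gene, 4 of 4 detected in every library) moved alongside, at 275 to 752 CPM in heated against 827 to 1159 CPM in unheated WT flowers, and 242 to 762 CPM against 319 to 580 CPM in bzip17, and its part in the GOLS9 change was not tested.

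Of the 4 other raffinose synthase family genes 3 were tested, and none was called higher at 38 °C. RS2/SIP2, known in Arabidopsis as an alkaline α-galactosidase acting on raffinose, fell by 2.45 on the log2 scale in heated bzip17 flowers (SE 0.49, adjusted p = 0.00377, edgeR), with 11.0, 64.6 and 74.4 CPM at 38 °C against 272, 296 and 253 CPM at 22 °C. It fell by 1.85 in WT flowers (SE 0.48, adjusted p = 0.0158, edgeR), with 75.3, 84.3 and 72.8 CPM against 321, 260 and 255 CPM, although the WT call was lost without replicate 3 at 38 °C (adjusted p = 0.0529). DIN10/RS6, known as a dark-inducible gene, fell by 1.58 in bzip17 flowers (adjusted p = 0.00489, edgeR) and had a log2 change of -0.67 in WT flowers (adjusted p = 0.15, edgeR). Its levels were 14.6, 8.88 and 17.1 CPM at 38 °C against 37.8, 31.4 and 52.2 CPM at 22 °C in bzip17, and 20.9, 17.8 and 17.5 CPM against 45.5, 25.0 and 18.3 CPM in WT. Thus 2 of the 3 fell in bzip17 and 1 in WT, while 6.44% of all tested genes were called lower in bzip17 and 6.43% in WT.

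Galactinol synthase uses UDP-galactose and myo-inositol. Of 8 tested genes of UDP-galactose supply, 1 was called higher in each genotype and 1 lower in bzip17, while 6.08% of all tested genes were called higher in bzip17, 6.4% in WT and 6.44% lower in bzip17. The gene called higher, UGP2 (a UDP-glucose pyrophosphorylase), rose by 1.53 ± 0.22 in bzip17 and 1.21 ± 0.22 in WT on the log2 scale (SE, adjusted p = 0.000465 and 0.00229, edgeR). It had 54.1, 73.3 and 89.0 CPM at 38 °C against 23.8, 25.1 and 25.9 CPM at 22 °C in bzip17, and 60.3, 82.4 and 68.6 CPM against 35.4, 22.0 and 34.1 CPM in WT, with no overlap in either genotype. UGE5, a UDP-glucose epimerase gene, fell by 3.40 in bzip17 (adjusted p = 0.0122, edgeR), but its span of 4994 bases lies wholly within another annotated gene, so its counts are uncertain. That call was also lost without bzip17 replicate 1 at 22 °C, where the change was -2.16 (adjusted p = 0.0537), and without bzip17 replicate 2 at 38 °C (adjusted p = 0.0544). In each genotype 4 of the 8 genes had an adjusted p under 0.05 by edgeR, where 5571 of 20715 tested genes did in bzip17 and 5511 in WT. Those below the 2-fold limit, named after their values were seen, went both ways. The UDP-glucose epimerase gene UGE1 had log2 changes of 0.78 in bzip17 and 0.83 in WT (adjusted p = 0.0172 and 0.0141, edgeR, no overlap). UGE4 had 0.70 in WT (adjusted p = 0.0199, edgeR). UGP1 had -0.70 in bzip17 (adjusted p = 0.00957, edgeR) and GALK -0.39 in WT (adjusted p = 0.0133, edgeR). The list's median log2 change was 0.14 in bzip17 and 0.47 in WT, beside -0.05 and 0.02 over all tested genes.

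Of 6 tested genes of myo-inositol supply, which include the 3 myo-inositol phosphate synthases, 0 were called higher and 1 lower in each genotype, where 6.44% of all tested genes were called lower in bzip17 and 6.43% in WT, and 1 of 6 is too few to set against those shares. That gene, IMPL2, fell by 1.34 in bzip17 and by 1.22 in WT (adjusted p = 8.39e-05 and 0.000194, edgeR), shares 2637 bases with a neighbouring gene and encodes a phosphatase known for its part in histidine synthesis. Both calls depended on the scaling: with library totals the log2 change was -1.20 in bzip17 (adjusted p = 0.0689) and -0.81 in WT (adjusted p = 0.2), and by limma on FPKM it was -1.13 to -1.20 in bzip17 (adjusted p 0.062 to 0.0771) and -0.67 to -0.71 in WT (adjusted p 0.238 to 0.243). Of 4 myo-inositol oxygenases, which consume myo-inositol, MIOX4 fell by 2.16 in WT (adjusted p = 0.0222, edgeR) with a log2 change of -0.54 in bzip17 (adjusted p = 0.533, edgeR). The WT call was lost without WT replicate 2 at 22 °C, replicate 2 at 38 °C or replicate 3 at 38 °C (adjusted p 0.0586 to 0.0702). The late pollen markers moved alongside MIOX4 as they did for GOLS9, 3 of 4 being called lower in heated WT flowers and 0 of 4 in heated bzip17 flowers, and their part was not tested. RS2/SIP2 was counted above with the raffinose synthase family and not among the α-galactosidases. None of the 3 listed α-galactosidases, which release galactose from raffinose, was called by edgeR, with log2 changes of -0.80 to 0.68. In each genotype 1 had an adjusted p under 0.05 below the 2-fold limit, but the genes and directions differed. These were AGAL1 in bzip17 (0.68, adjusted p = 0.0361, edgeR) and AGAL2 in WT (-0.80, adjusted p = 0.0158, edgeR). Of 20715 tested genes, 5571 had an adjusted p under 0.05 by edgeR in bzip17 and 5511 in WT.

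**Figure D3:**
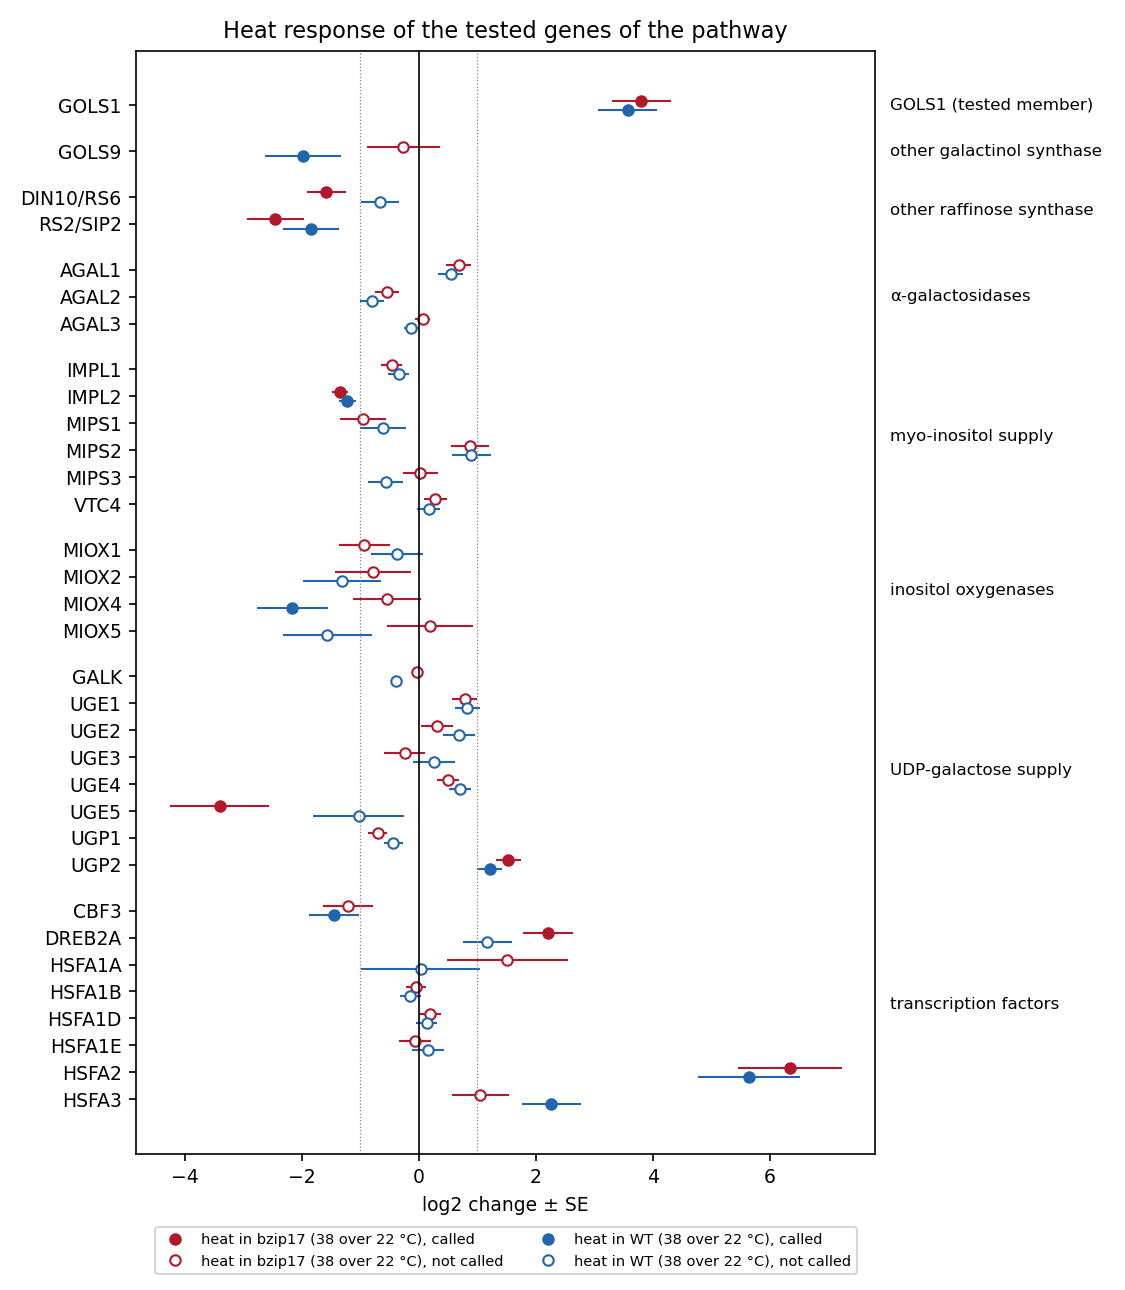
Log2 change with heat (38 over 22 °C, ± SE) of the tested genes of the pathway lists (1 not drawn) in bzip17 and WT, filled where called and open where not, with dotted lines at 2-fold. GOLS1 lies at 3.80 and 3.57, against -2.45 and -1.85 for RS2/SIP2, and HSFA2 has the largest change drawn.

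Among 10 transcription factor genes reported upstream of these genes, 8 were tested. By edgeR, 2 rose in bzip17, while 2 rose and 1 fell in WT. Over all tested genes 6.08% were called higher in bzip17, and 6.4% higher and 6.43% lower in WT, and the list was not tested as a set. HSFA2, a heat shock factor that is itself heat-inducible, had 32.7, 130 and 49.8 CPM in heated bzip17 flowers, against 0.997, 0.539 and 1.08 CPM in unheated ones. In WT flowers it had 19.0, 124 and 24.0 CPM at 38 °C, against 1.10, 0.544 and 2.02 CPM at 22 °C. As for GOLS1, replicate 2 was the highest heated library in both genotypes, and the groups did not overlap. HSFA2 rose by 6.33 ± 0.89 in bzip17 (adjusted p = 0.000452, edgeR) and by 5.64 ± 0.88 in WT (SE, adjusted p = 0.00108, edgeR), and in WT by 4.25 without WT replicate 2 at 38 °C.

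HSFA3, a heat shock factor downstream of DREB2A, rose by 2.26 in WT (adjusted p = 0.00743, edgeR) and had a log2 change of 1.05 in bzip17 (adjusted p = 0.133, edgeR). Its levels were 9.06, 17.4 and 8.40 CPM at 38 °C against 4.69, 6.26 and 5.90 CPM at 22 °C in bzip17, and 9.28, 39.5 and 11.6 CPM against 4.60, 4.81 and 3.06 CPM in WT. Without WT replicate 2 at 38 °C the change in WT was 1.32. The other calls, named after their values were seen, were DREB2A, a drought and heat response factor that rose by 2.21 in bzip17 (adjusted p = 0.00292, edgeR; 1.17 and 0.0565 in WT), and CBF3, a cold response factor that fell by 1.44 in WT (adjusted p = 0.0285, edgeR; -1.21 and 0.0532 in bzip17). DESeq2 called DREB2A and CBF3 in both genotypes. The edgeR call of CBF3 in WT was lost without any 1 of 4 WT libraries (adjusted p 0.0785 to 0.0932), replicates 2 and 3 at each temperature. Of the 33 pathway genes tested, edgeR and DESeq2 called 0 between the genotypes at 38 °C, 0 at 22 °C and 0 in the interaction, where 1, 3 and 1 had an unadjusted p under 0.05 by edgeR.

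The genes whose levels followed GOLS1 most closely over the 12 libraries encode small heat shock proteins or have no annotation. As a description over libraries that fall into heated and unheated sets, Pearson's r of log2(CPM + 0.5) with GOLS1 was 0.989 for HSP21, a chloroplast small heat shock protein, 0.988 for AT1G58140.1, which has no annotation in the sources used here, and 0.987 for AT1G07400, an HSP20-like chaperone. In all, 897 of 20714 genes had an r over 0.9, so such closeness is shared by many genes. HSP21 stood at 29.0, 141 and 45.6 CPM in heated bzip17 flowers, against 0, 0.0829 and 0 CPM in unheated ones, and at 22.7, 217 and 13.7 CPM in heated WT flowers, against 0, 0.0947 and 0 CPM in unheated ones. Replicate 2 was the highest heated library of each genotype, which the choice of HSP21 by its r with GOLS1 makes likely.

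**Figure D4:**
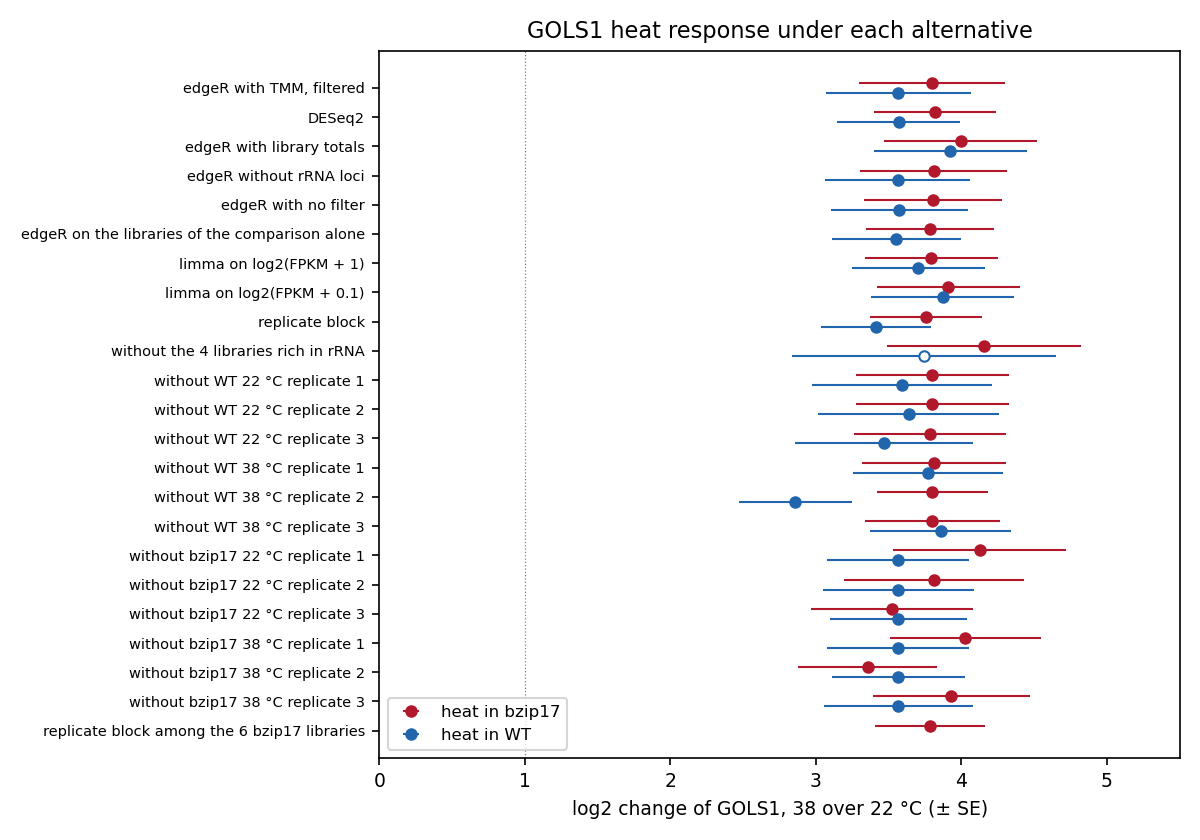
Log2 change of GOLS1 with heat (38 over 22 °C, ± SE) in bzip17 and WT under each alternative normalization, filter, tool or left-out library, filled where called and open where not. The values run from 3.35 to 4.15 in bzip17 and from 2.86 to 3.92 in WT, and the 1 open symbol is WT without the 4 libraries rich in rRNA.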

How the data were processed

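The authors isolated RNA with TRIzol and sequenced it on the NovaSeq platform. Adapters were removed with cutadapt, alignment to TAIR10 used HISAT2, and StringTie assemblies were merged with gffcompare. Versions and strand protocol are not given in the sources used here. Rows are TAIR10 genes with a whole-number estimated count and an FPKM per library, as deposited by the authors. Among nonzero values up to 20, 42.6% were multiples of 4 (25% of the integers), so they were treated as estimated rather than raw counts, a departure from the unit foreseen. FPKM was deposited by the authors from StringTie and ballgown, and its filler for a count of 0 was read as 0. Of the table's columns of annotation, the gene coordinates, strand and description were used.

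The 20715 genes that reached an FPKM of 1 in 3 or more libraries were fitted with edgeR 4.0.16 (quasi-likelihood, TMM, 4 group means over 12 libraries, Benjamini-Hochberg over all genes, R 4.3.3). RS5 and GOLS2 to GOLS4 came from the same fit on all 28129 genes with a count. Alternatives used DESeq2 1.42.0, limma 3.58.1 on log2(FPKM + 1) or log2(FPKM + 0.1), library totals, no rRNA loci, no filter, a replicate block, left-out libraries and the threshold of the study (2-fold, unadjusted p under 0.05). Biological replicates are separate pools of plants, and p-values measure the spread between them. The replicate numbers name no batch in the labels. Deviations of same-number libraries correlated at 0.208, 0.252 and 0.266 for heat in bzip17, and at 0.0293, 0.107 and -0.122 for heat in WT. Between genotypes they correlated at -0.0387, 0.159 and -0.269 at 22 °C, and at -0.230, 0.311 and 0.0137 at 38 °C. Libraries of different number correlated at -0.285 to 0.0466 for heat in bzip17 and at -0.205 to 0.194 for heat in WT. Between genotypes those values were -0.3005 to 0.356 at 22 °C and -0.374 to 0.319 at 38 °C. Any pairing of the bzip17 libraries rests on these values alone. The script was tested on simulated data. Promoters and coding sequences were read from RefSeq TAIR10.1, in which 26710 of 26710 shared nuclear genes lay at overlapping coordinates. RefSeq symbols matched 28932 of 33610 genes. Tables, sequences and figures were made with Python 3.11.15, pandas 2.3.3, Biopython 1.88 and matplotlib 3.10.9.

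The 5 genes and the pathway and marker lists were chosen with earlier results of these data known. Named from each pathway list were up to 2 called genes with the largest change with heat, every other expressed synthase family gene (1 is not reported here), and the 3 genes most like GOLS1.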

Additional observations from a re-analysis of the deposited data

How the results depend on the processing

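GOLS1 kept its direction in heat under all 22 alternatives in bzip17 and 21 in WT, and its call under all but 1. That one left out the 4 libraries with over 10% rRNA, which leaves 1 WT library at 22 °C: the change in WT was 3.74 (adjusted p = 0.0785, edgeR), 0 of the 5 genes were called and 507 genes were called in place of 2658. Leaving out 1 library gave 3.35 to 4.13 in bzip17 and 2.86 to 3.86 in WT. Uncalled GOLS1 values changed sign: the genotype difference at 22 °C was -0.37 without those 4 libraries and -0.0019 with a replicate block, and leaving out 1 library gave -0.31 to 0.30 at 22 °C, -0.19 to 0.96 at 38 °C and -0.21 to 0.94 for the interaction. RS5 with heat in WT was 0.30 with library totals, 0.093 by limma on log2(FPKM + 1) and 0.28 on log2(FPKM + 0.1), and in bzip17 DESeq2 called it at -1.10, while its alternatives ran from -1.31 to -0.37. With library totals the median of all genes moved to 0.41 for heat in WT, and GOLS1 stood 3.52 above it. With the replicate block over 12 libraries GOLS1 changed by 3.75 in bzip17 and 3.41 in WT, and by 3.78 with a block among the 6 bzip17 libraries, added after seeing the data. Among the 5 genes the block changed no call, and of the pathway genes it ended the GOLS9 call (adjusted p = 0.0701). Calls over all genes for heat in bzip17 were 2594, against 1300 with library totals and 1593 and 1308 by limma. The genotype gave 2 calls at 22 °C (67 by DESeq2, 11 with library totals, 758 at the threshold of the study) and 3 at 38 °C (37, 7 and 239), and the interaction 0 (6 by DESeq2, 3 with library totals). Calls of GOLS9, RS2/SIP2 in WT, DIN10/RS6, IMPL2 and CBF3 were lost with library totals and in both limma fits. Without the 4 libraries rich in rRNA, calls were lost for GOLS9 (adjusted p = 0.0997), RS2/SIP2 (0.216), MIOX4 (0.0957), UGP2 (0.103), HSFA2 (0.0802), HSFA3 (0.138) and CBF3 (0.496) in WT, and for UGE5 (0.105) in bzip17, all by edgeR. The causes were not tested.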
